A study of Mus musculus with 16 samples.

Results

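The genes described here are 10 antioxidant targets of the transcription factor NRF2 in mouse peritoneal macrophages: Gclc, Gclm, Slc7a11, Gsr, Gsta3, Txnrd1, Srxn1, Hmox1, Nqo1 and Osgin1. They were chosen by name from a list of known targets, with earlier results of these data known, and all 10 had probe sets that carry their symbol alone, 108 in all, among 20848 genes on the array that have a probe set of their own. The study compared resident macrophages of the abdominal cavity from mice that lack Ogr1 (KO, -/-), a proton-sensing receptor on the cell surface, with those of wild-type mice (WT, +/+), both on the C57BL/6 background. After isolation the cells were cultured in RPMI 1640 with 10% serum for 24 h. The 4 groups, of 4 arrays each and 16 in all, were KO cells at pH 6.7, KO cells at pH 7.7, WT cells at pH 6.7 and WT cells at pH 7.7. The sample names give these pH values, while the treatment text gives 6.8 and 7.6. The labels name no step that separated the macrophages from other peritoneal cells, and the transcript of the targeted gene was not analysed here.

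NRF2 is made all the time and is marked for destruction by KEAP1, the adaptor of a CUL3 ubiquitin ligase. Oxidants and electrophiles modify cysteines of KEAP1, after which NRF2 accumulates, pairs with a small MAF protein and binds antioxidant response elements near its target genes. The targets make, use and recycle glutathione, feed the thioredoxin system and break down heme and quinones. In macrophages they are known for limiting the damage done by the cell's own oxidants and by the iron and heme of ingested red cells.

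The core of the antioxidant response element, TGACNNNGC with N for any base, was searched on both strands from 250 bases before to 50 bases after the annotated start, in promoter windows of RefSeq (GRCm38.p6). Of the 10 genes, 7 were matched to a window, and Gsr, Hmox1 and Gclc were not. The core was present in Gsta3, Gclm, Txnrd1 and Srxn1, and these letters did not occur in the windows of Osgin1, Nqo1 and Slc7a11. Forms of the element with other letters, and sequence outside the windows, were not searched. A gene without a match is therefore not shown to lack an element. Of 27025 genes with a window, 14.0% held the core in at least 1 window, and a match describes sequence only. Txnrd1 has 3 annotated starts, and 1 of its 3 windows held the core. In Srxn1 the match lay 28 bases after the start, in the transcribed part, which is not printed. The 250 bases before the start are shown for the 3 genes with an upstream match. They are shown too for Osgin1, which was higher at pH 6.7 in both genotypes and has no match to the searched core. They read 5′ to 3′ in the direction of the gene, and capitals mark the core. It begins 121 bases before the start of Gsta3 (chr1:21240335-21240584, plus strand), 134 bases before that of Gclm (chr3:122245307-122245556, plus strand) and 92 bases before that of Txnrd1 (chr10:82858956-82859205, plus strand). In Gclm and Txnrd1 the core is on the opposite strand and appears as its reverse complement. The Osgin1 window is chr8:119436897-119437146, plus strand.
Gsta3: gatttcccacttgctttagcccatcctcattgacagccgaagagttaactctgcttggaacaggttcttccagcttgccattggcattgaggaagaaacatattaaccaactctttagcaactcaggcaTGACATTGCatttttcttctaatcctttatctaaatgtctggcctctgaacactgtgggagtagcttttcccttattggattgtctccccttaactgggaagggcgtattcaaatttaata
Gclm: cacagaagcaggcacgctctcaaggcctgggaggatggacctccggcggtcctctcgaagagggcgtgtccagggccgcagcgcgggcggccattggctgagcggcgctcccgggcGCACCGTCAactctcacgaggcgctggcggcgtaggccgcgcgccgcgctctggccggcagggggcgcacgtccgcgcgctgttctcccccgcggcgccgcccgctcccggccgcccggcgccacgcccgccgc
Txnrd1: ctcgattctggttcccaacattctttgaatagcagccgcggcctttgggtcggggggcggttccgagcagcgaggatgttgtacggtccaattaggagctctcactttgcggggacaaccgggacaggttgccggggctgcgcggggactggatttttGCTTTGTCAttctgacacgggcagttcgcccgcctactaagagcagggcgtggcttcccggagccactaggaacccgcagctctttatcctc
Osgin1: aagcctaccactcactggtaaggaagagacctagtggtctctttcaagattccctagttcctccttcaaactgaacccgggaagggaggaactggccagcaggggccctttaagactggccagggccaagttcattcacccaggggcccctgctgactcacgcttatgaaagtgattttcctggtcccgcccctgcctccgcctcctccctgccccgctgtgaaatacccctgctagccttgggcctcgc

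Each array gave 1 deposited intensity per probe set, several of which tile a gene, and a gene's level is the mean of log2 intensity over its probe sets. The median linear intensity of an array was 8.14 to 8.61. All 10 genes lay above the median of their array on all 16 arrays, Nqo1 by the narrowest margin (0.24 in log2 on its lowest array). The distance from background was not measured, so intensities are not read as amounts of RNA of one gene against another. The least typical array was WT pH 7.7 replicate 2, whose median correlation to the others was 0.883, where the remaining ones had 0.907 to 0.923. Of 7 macrophage markers, 6 lay above the array median on all 16 arrays, and the summed linear level of all 7 was 3766 to 3941 in KO at pH 6.7, 3848 to 4026 in KO at pH 7.7, 3799 to 4291 in WT at pH 6.7 and 3650 to 4360 in WT at pH 7.7. Whether the arrays within a group stem from different mice is unstated in the labels, so the p-values reflect array-to-array spread that may be only technical. In such bulk RNA, fewer cells of a type and less RNA per cell cannot be told apart.

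At pH 6.7 the KO macrophages had more RNA of 6 of the 10 genes than at pH 7.7: Gsta3, Gclm, Gsr, Gclc, Osgin1 and Hmox1, with increases of 1.53-fold to 2.51-fold. None of the 10 was called lower. Over all 15770 genes tested, 4.86% were called higher in the same comparison. The 10 were chosen with earlier results known, so their count beside this share is a description. The median log2 change of the 10 was 0.70, beside −0.01 over all genes tested. In WT macrophages 3 of the 10 genes, Gsr, Osgin1 and Hmox1, were higher at pH 6.7 and 0 lower, where 3.17% of all genes tested were called higher. The median of the 10 was 0.15 in WT, beside 0.01 over all genes. Calls are adjusted p under 0.05 from limma, with Benjamini-Hochberg adjustment over all genes tested in a comparison. Ranked by mean log2 intensity alone, 7 of the 10 lie in the brightest of 5 equal groups of the tested genes, in which 9.35% were called higher in KO and 6.85% in WT, with medians of 0.07 and 0.04.

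**Figure D1:**
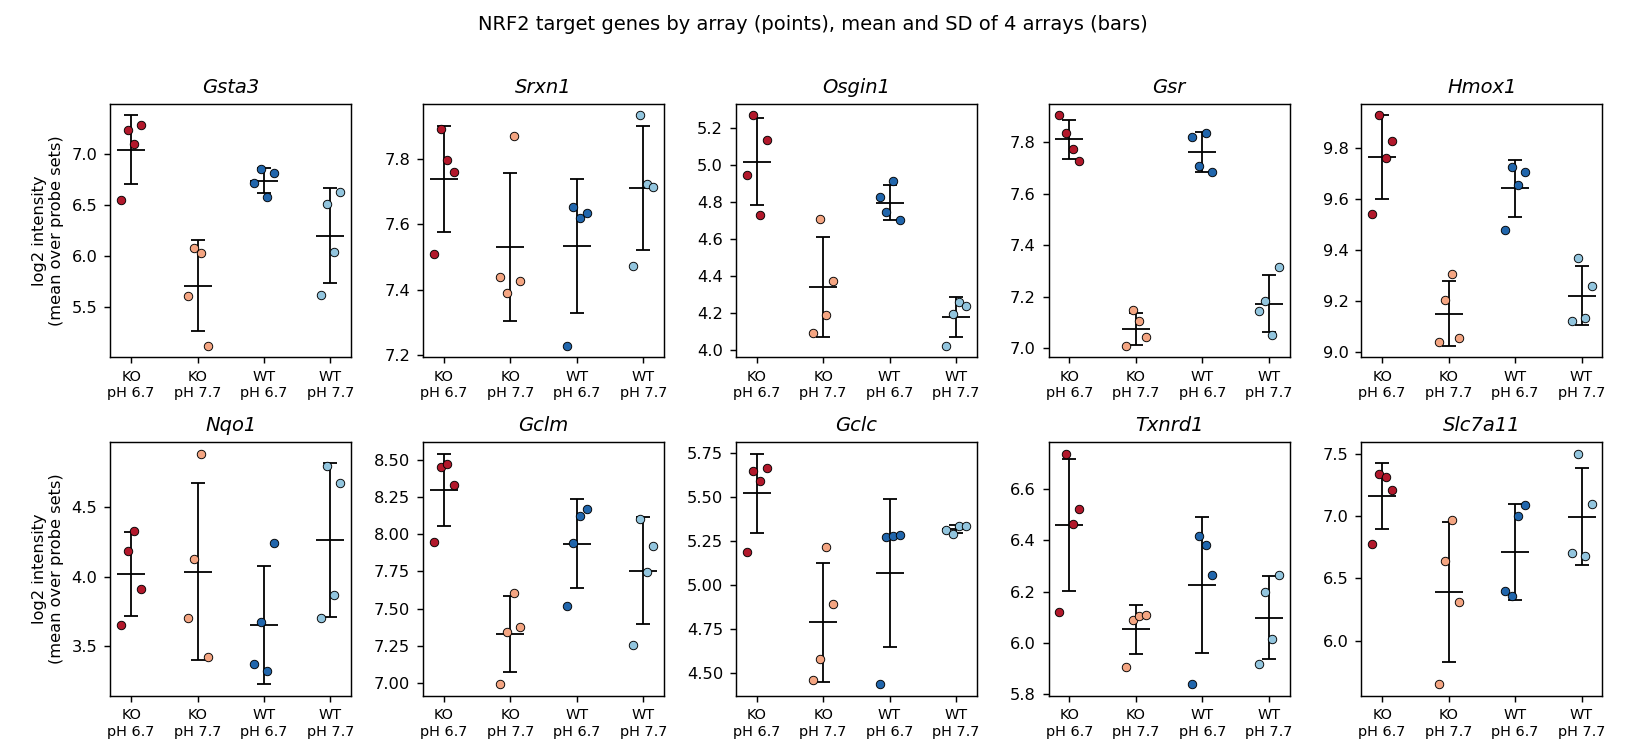
Log2 intensity (vertical axis, mean over a gene's probe sets, own scale for each gene) of the 10 NRF2 targets in the 4 groups, with a point for each array and bars for the mean and SD of 4 arrays. For Gsr the KO arrays sit between 7.73 and 7.90 at pH 6.7 and between 7.01 and 7.15 at pH 7.7, and the WT arrays at pH 6.7 are likewise above those at pH 7.7, while for Gclc the WT arrays at pH 7.7 sit close to 5.32 and above all KO arrays at that pH.

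Glutathione synthesis begins with glutamate-cysteine ligase, made of the catalytic subunit Gclc and the modifier subunit Gclm, and depends on cystine brought in by the antiporter Slc7a11. Gclm in KO cells read 7.95, 8.45, 8.47 and 8.33 at pH 6.7, against 6.99, 7.34, 7.61 and 7.38 at pH 7.7. All KO arrays at pH 6.7 were above all KO arrays at pH 7.7. The log2 change was 0.97 ± 0.18 (SE, n = 4 arrays per group, limma adjusted p = 0.00491). Gclm in WT cells read 7.52, 7.94, 8.12 and 8.17 at pH 6.7, against 7.26, 8.10, 7.74 and 7.92 at pH 7.7, and the groups overlapped. When the brightest probe set replaced the mean over probe sets, the KO change was 0.56 and did not pass (adjusted p = 0.195). The WT change of 0.18 ± 0.18 did not pass (limma adjusted p = 0.699, 95% interval −0.21 to 0.57).

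Gclc in KO cells read 5.19, 5.64, 5.59 and 5.66 at pH 6.7, against 4.46, 4.58, 5.22 and 4.89 at pH 7.7. Replicate 1 was the lowest array of the pH 6.7 group and lay just below the highest of the pH 7.7 group, so the groups overlapped by 1 array on each side. The change was 0.73 ± 0.18 (limma adjusted p = 0.0233). The gene fell short of the threshold in 5 of 16 leave-one-out fits, those without KO pH 6.7 replicate 2, 3 or 4 or without KO pH 7.7 replicate 1 or 2, with adjusted p up to 0.0759. With the brightest probe set it was 0.60 and did not pass either (adjusted p = 0.118). Gclc in WT cells read 4.44, 5.27, 5.28 and 5.28 at pH 6.7, against 5.31, 5.29, 5.34 and 5.33 at pH 7.7. The WT arrays at pH 7.7 were close together, and all 4 at pH 6.7 lay below them, 3 of these by a small margin and replicate 1 far below. The WT change was −0.25 ± 0.18 (limma adjusted p = 0.555, 95% interval −0.64 to 0.14), and −0.04 without WT pH 6.7 replicate 1 (adjusted p = 0.937).

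Slc7a11 in KO cells read 6.77, 7.34, 7.32 and 7.21 at pH 6.7, against 5.65, 6.64, 6.97 and 6.31 at pH 7.7. The pH 6.7 arrays were the higher ones apart from replicate 1, which lay below replicate 3 of the pH 7.7 group. The change of 0.77 ± 0.25 did not pass (limma adjusted p = 0.0681, 95% interval 0.24 to 1.30). Without KO pH 7.7 replicate 3 it passed (0.96, adjusted p = 0.0364), as it did with array weights (adjusted p = 0.0388) and a stricter filter (adjusted p = 0.0498). Slc7a11 in WT cells read 6.40, 6.36, 6.999 and 7.09 at pH 6.7, against 6.70, 7.50, 6.68 and 7.10 at pH 7.7, and the groups overlapped. The WT value was −0.28 ± 0.25 (limma adjusted p = 0.646).

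Glutathione is recycled by the reductase Gsr, which uses NADPH to reduce its oxidised form, and is joined to reactive compounds by transferases such as Gsta3. Gsr in KO cells read 7.90, 7.84, 7.77 and 7.73 at pH 6.7, against 7.01, 7.15, 7.10 and 7.04 at pH 7.7. Gsr in WT cells read 7.82, 7.71, 7.83 and 7.69 at pH 6.7, against 7.15, 7.18, 7.05 and 7.31 at pH 7.7. In both genotypes every array at pH 6.7 was above every array at pH 7.7, and the 4 arrays of a group were close together. The log2 change was 0.73 ± 0.09 in KO (limma adjusted p = 0.000211) and 0.59 ± 0.09 in WT (limma adjusted p = 0.000622). Both calls stood in all 16 fits without 1 array. With the gene's brightest probe set in place of the mean over its probe sets, the KO change was 0.44 and did not pass (adjusted p = 0.0534).

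Gsta3 in KO cells read 6.55, 7.23, 7.09 and 7.28 at pH 6.7, against 5.61, 6.08, 6.02 and 5.12 at pH 7.7. The KO groups did not overlap, and the 95% interval of the change was 0.86 to 1.80. Among the 10 genes this was the largest log2 change in KO, 1.33 ± 0.22 (limma adjusted p = 0.00225). It passed in all 16 fits without 1 array and under all 11 other settings. Gsta3 in WT cells read 6.71, 6.85, 6.58 and 6.81 at pH 6.7, against 5.62, 6.51, 6.04 and 6.63 at pH 7.7. Replicates 2 and 4 of the WT pH 7.7 group stood close to the pH 6.7 arrays. The WT change was 0.54 ± 0.22 and did not pass (limma adjusted p = 0.210), and without WT pH 7.7 replicate 1 it was 0.34.

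The thioredoxin system is kept reduced by the reductase Txnrd1, and Srxn1, sulfiredoxin, restores peroxiredoxins that have been oxidised too far. Txnrd1 in KO cells read 6.12, 6.74, 6.46 and 6.52 at pH 6.7, against 5.91, 6.09, 6.10 and 6.11 at pH 7.7. The KO groups did not overlap, although replicate 1 at pH 6.7 lay close to the pH 7.7 arrays. The change of 0.41 ± 0.14 did not pass (limma adjusted p = 0.0806). It passed without KO pH 6.7 replicate 1 (0.52, adjusted p = 0.0386) and without WT pH 6.7 replicate 1, which enters through the shared spread (adjusted p = 0.0469). With the level on each array taken as the median over the Txnrd1 probe sets, the KO change was 0.88 and passed (adjusted p = 0.0198). The median of the KO changes of its 20 probe sets was 0.43. Txnrd1 in WT cells read 5.84, 6.42, 6.38 and 6.27 at pH 6.7, against 5.92, 6.20, 6.02 and 6.27 at pH 7.7, with replicate 1 at pH 6.7 the lowest. The WT change was 0.13 ± 0.14 (limma adjusted p = 0.726).

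Srxn1 in KO cells read 7.51, 7.89, 7.80 and 7.76 at pH 6.7, against 7.44, 7.39, 7.87 and 7.42 at pH 7.7. Replicate 3 at pH 7.7 stood with the pH 6.7 arrays, and the groups overlapped. The change was 0.21 ± 0.14 (limma adjusted p = 0.368). Srxn1 in WT cells read 7.23, 7.65, 7.62 and 7.63 at pH 6.7, against 7.47, 7.94, 7.72 and 7.71 at pH 7.7, also with overlap. The WT change was −0.18 ± 0.14 (limma adjusted p = 0.575). Its brightest probe set gave a KO change of 0.66 that passed (adjusted p = 0.0227).

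Heme oxygenase 1, encoded by Hmox1, breaks heme down to biliverdin, iron and carbon monoxide, and Nqo1 reduces quinones. Hmox1 in KO cells read 9.54, 9.93, 9.76 and 9.83 at pH 6.7, against 9.04, 9.20, 9.30 and 9.05 at pH 7.7. Hmox1 in WT cells read 9.48, 9.73, 9.66 and 9.71 at pH 6.7, against 9.12, 9.37, 9.13 and 9.26 at pH 7.7. No array at pH 7.7 reached the arrays of its genotype at pH 6.7. The change was 0.62 ± 0.10 in KO (limma adjusted p = 0.00236) and 0.42 ± 0.10 in WT (limma adjusted p = 0.0263). In 5 of 16 leave-one-out fits the WT change fell short of the threshold, those without WT pH 6.7 replicate 2, 3 or 4 or without WT pH 7.7 replicate 1 or 3 (adjusted p up to 0.0743). With the brightest probe set neither change passed (0.37 in KO and 0.24 in WT, adjusted p = 0.114 and 0.466), and the WT change did not pass with the median over probe sets (adjusted p = 0.0603) or when the WT arrays were fitted alone (adjusted p = 0.0786).

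Nqo1 in KO cells read 3.65, 4.19, 4.33 and 3.91 at pH 6.7, against 3.71, 4.13, 4.89 and 3.42 at pH 7.7. Nqo1 in WT cells read 3.37, 3.67, 3.32 and 4.24 at pH 6.7, against 3.70, 4.80, 3.87 and 4.68 at pH 7.7. The arrays of a group differed by up to 1.47 in log2, and the groups overlapped in both genotypes. The change was −0.02 ± 0.30 in KO (limma adjusted p = 0.983, 95% interval −0.64 to 0.61) and −0.61 ± 0.30 in WT (limma adjusted p = 0.303, 95% interval −1.24 to 0.01). Nqo1 was the one gene of the 10 with a value below 0 in KO. With the median level over its probe sets on each array the KO value was 0.09, while the median of the KO changes of its 7 probe sets was −0.15.

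Osgin1, named an oxidative stress-induced growth inhibitor, has the promoter window shown above, in which the searched core did not occur. Osgin1 in KO cells read 4.94, 5.27, 4.73 and 5.13 at pH 6.7, against 4.09, 4.71, 4.19 and 4.37 at pH 7.7. Osgin1 in WT cells read 4.83, 4.74, 4.91 and 4.70 at pH 6.7, against 4.02, 4.197, 4.26 and 4.24 at pH 7.7. The groups did not overlap in either genotype, although replicate 3 at pH 6.7 and replicate 2 at pH 7.7 in KO nearly met. The change was 0.68 ± 0.13 in KO (limma adjusted p = 0.00628) and 0.62 ± 0.13 in WT (limma adjusted p = 0.0116). Both calls stood in all 16 fits without 1 array. With the level on each array taken as the median over its 6 probe sets, neither change passed (0.38 in KO and 0.43 in WT, adjusted p = 0.348 and 0.364). The median of the changes of the 6 Osgin1 probe sets was 0.78 in KO and 0.61 in WT. The brightest probe set gave 1.15 in KO, which passed, and 0.68 in WT, which did not (adjusted p = 0.318).

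Averaged over both genotypes, 5 of the 10 genes were higher at pH 6.7 and 0 lower, where 7.82% of all genes tested were called higher and 3.77% lower. These were Gsta3 (0.93 ± 0.16, limma adjusted p = 0.000858), Gsr (0.66 ± 0.06, adjusted p = 2.58e-06), Osgin1 (0.65 ± 0.09, adjusted p = 0.000212), Gclm (0.58 ± 0.13, adjusted p = 0.00731) and Hmox1 (0.52 ± 0.07, adjusted p = 0.000185). The brightest probe set gave 0.33 for Gclm (adjusted p = 0.312) and 0.31 for Hmox1 (adjusted p = 0.0776), and the median over probe sets 0.41 for Osgin1 (adjusted p = 0.118), none of which passed. The other 5 lay between −0.31 for Nqo1 and 0.27 for Txnrd1, which passed with the median (0.47, adjusted p = 0.0426). The averaged comparison uses the same arrays as the comparisons within KO and WT and is no separate evidence.

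**Figure D2:**
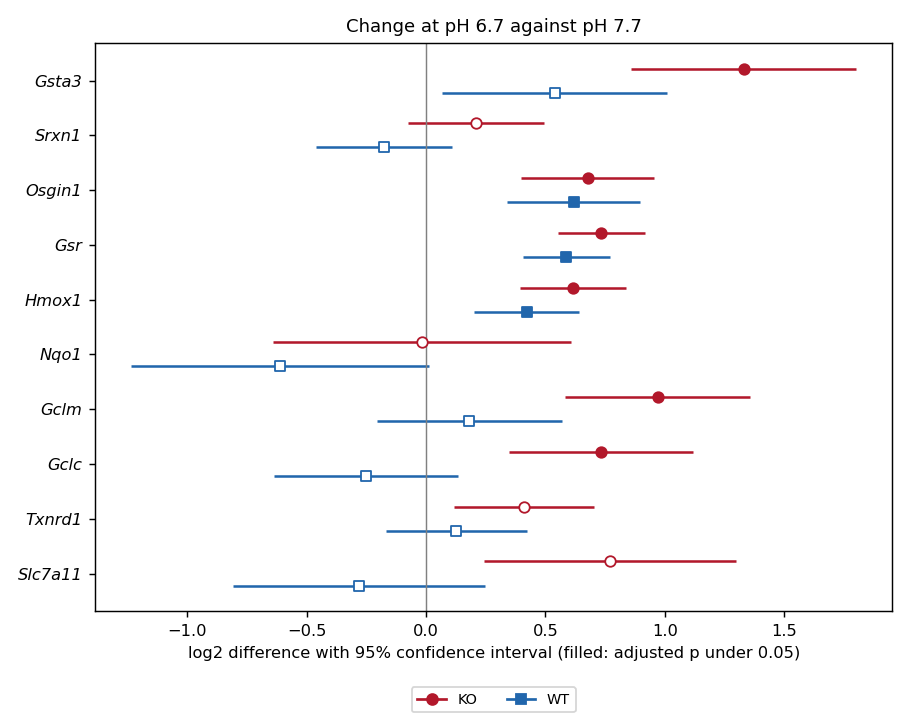
Log2 change at pH 6.7 against pH 7.7 (horizontal axis, with 95% confidence intervals) for each gene, KO as circles above WT as squares, filled where the adjusted p is under 0.05. Filled symbols mark 6 genes in KO and 3 in WT, and the KO value lies to the right of the WT value for all 10.

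Levels of other cells' markers differed between some groups. By the mean over probe sets, 0 of 7 mast cell and 0 of 7 mesothelial and fibroblast markers lay above the array median on all arrays. The counts were 0 of 5 for B cells, 0 of 6 for T and NK cells and 1 of 5 for dendritic cells. The sums below are not read as numbers of cells. The summed linear level of 7 mast cell markers was 33.4 to 49.0 in KO at pH 6.7, against 56.3 to 95.8 in KO at pH 7.7, with 6 of 7 lower at pH 6.7. In WT it was 33.3 to 199 at pH 6.7, with replicate 1 at the top, against 28.0 to 56.3 at pH 7.7, with 7 of 7 higher. Without replicate 1 the pH 6.7 sums were 33.3 to 58.6, with 5 of 7 higher. The 7 mesothelial and fibroblast markers summed to 29.4 to 33.5 in KO at pH 6.7, against 35.3 to 37.9 in KO at pH 7.7, with 6 of 7 lower. In WT their sums were 32.8 to 38.6 against 32.9 to 37.6, with 3 of 7 lower. The 5 dendritic cell markers summed to 96.8 to 122 in WT at pH 6.7, against 46.9 to 85.5 in WT at pH 7.7, with 4 of 5 higher, or 2 of 5 without WT pH 6.7 replicate 1. In KO their sums were 65.1 to 114 against 65.6 to 97.7, with 3 of 5 higher. The 5 B cell markers with a probe set were all lower in KO at pH 6.7 (33.98 to 46.7 against 34.7 to 77.9), and 3 of 5 without KO pH 6.7 replicate 2. In WT they summed to 33.8 to 96.4 at pH 6.7, against 30.6 to 44.5 at pH 7.7, with 3 of 5 higher, or 5 of 5 without WT pH 6.7 replicate 1. For T and NK cells 5 of 6 were lower in KO (20.9 to 24.3 against 24.1 to 29.0) and 4 of 6 in WT (22.4 to 25.0 against 22.6 to 26.8). Single markers passed in limma as well: in KO Cd3e of T cells (−0.37), the fibroblast collagen gene Col1a1 (−0.38) and the macrophage integrin gene Itgam (−0.33) were lower at pH 6.7. In WT Cd79b of B cells (1.27) and Cd209a of dendritic cells (1.11) were higher, as were the macrophage markers Fcgr1 (1.30) and Mertk (0.48) and the large peritoneal macrophage markers Selp (2.55) and Cd5l (1.398). Of the 7 macrophage markers, 4 were higher and 3 lower at pH 6.7 in either genotype. Without WT pH 6.7 replicate 1, 3 were higher and 4 lower in WT. Of 6 large peritoneal macrophage markers, 4 were higher and 2 lower in WT, and 3 were higher and 3 lower in KO. No marker has a value of 0 on these arrays, and none can be called absent because background was not measured. The part of these cells in the changes of the 10 genes was not tested.

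The comparison between genotypes asked whether the response to acid depends on the receptor. None of the 10 genes passed in the difference of the pH changes, KO minus WT, where 0.0698% of all genes tested were called. All 10 differences were above 0, beside 47.1% of all genes tested, and their median was 0.49, beside −0.02. The 10 values come from the same 16 arrays and do not count as 10 independent observations. At an unadjusted p under 0.05, 4 of the 10 differed, where 12.4% of all genes tested did. These were Slc7a11 (1.05 ± 0.35, limma adjusted p = 0.244), Gclc (0.98 ± 0.26, adjusted p = 0.143), Gsta3 (0.79 ± 0.32, adjusted p = 0.312) and Gclm (0.79 ± 0.26, adjusted p = 0.234). For the 3 genes called in both genotypes the differences were 0.19 for Hmox1 (95% interval −0.12 to 0.51), 0.15 for Gsr (−0.11 to 0.40) and 0.06 for Osgin1 (−0.34 to 0.45). Nqo1 gave 0.59 ± 0.42, Srxn1 0.39 ± 0.19 and Txnrd1 0.28 ± 0.20 without passing. With the brightest probe set Srxn1 passed (1.02, adjusted p = 0.0361), the difference of Gsr became −0.16 and that of Gclm 0.46. A call in KO and none in WT, as for Gsta3, Gclm and Gclc, is therefore no shown difference between the genotypes.

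At pH 6.7, none of the 10 passed between KO and WT, where 0.0254% of all genes tested were called. All 10 values were above 0, beside 52.6% of all genes tested, with a median of 0.27. At an unadjusted p under 0.05 only Gclc differed (0.45 ± 0.18, limma adjusted p = 0.361), where 11.4% of all genes tested did. The Gclc difference was 0.24 without WT pH 6.7 replicate 1, and −0.02 with its brightest probe set.

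At pH 7.7, none of the 10 passed either, where 0% of all genes tested were called. Of the 10 values 1 was above 0, that of Osgin1, beside 57.1% of all genes tested, with a median of −0.20. At an unadjusted p under 0.05, 4 differed, where 8.08% of all genes tested did: Slc7a11 (−0.60 ± 0.25, limma adjusted p = 0.562), Gclc (−0.53 ± 0.18, adjusted p = 0.522), Gsta3 (−0.49 ± 0.22, adjusted p = 0.599) and Gclm (−0.43 ± 0.18, adjusted p = 0.573). Without KO pH 7.7 replicate 1 the value of Slc7a11 was −0.36, without KO pH 7.7 replicate 4 that of Gsta3 was −0.29, and the brightest probe set gave −0.20 for Gclm. This comparison shares its arrays with the difference of the pH changes. For Gclc all 4 KO arrays at pH 7.7 lay below all 4 WT arrays at that pH.

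**Figure D3:**
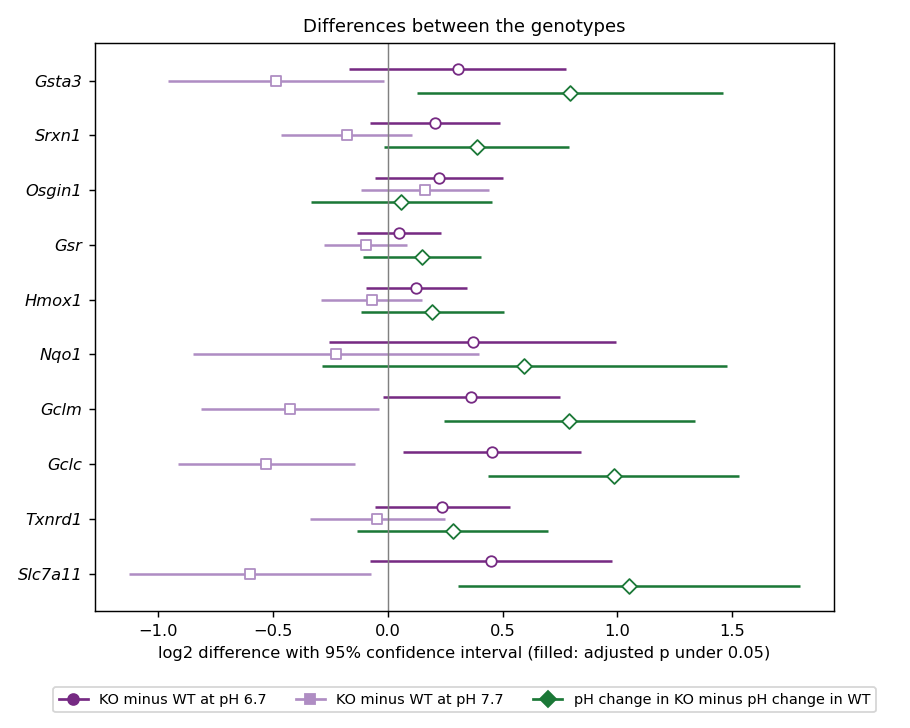
Log2 differences between the genotypes (horizontal axis, with 95% confidence intervals) for each gene: KO minus WT at pH 6.7 as circles, KO minus WT at pH 7.7 as squares, and the pH change in KO minus that in WT as diamonds. All symbols are open because no adjusted p is under 0.05, and all 10 circles and diamonds lie right of 0, while 9 of the 10 squares lie left of it.

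Within a gene the probe sets did not all move alike. Of the 108 probe sets, 96 were higher at pH 6.7 in KO and 63 in WT. The share over all probe sets was not computed. Of all genes tested, 47.6% had a value above 0 in KO and 52.3% in WT. Probe sets of 1 gene share its RNA, so these counts carry no test. Every probe set was higher in KO for Gclc (17 of 17), Slc7a11 (13 of 13), Gsr (13 of 13), Gclm (9 of 9) and Gsta3 (8 of 8). In WT the counts were 4 of 17 for Gclc, 3 of 13 for Slc7a11, 12 of 13 for Gsr, 8 of 9 for Gclm and 8 of 8 for Gsta3. Srxn1 had 5 of 7 probe sets higher in KO and 0 of 7 in WT, and Nqo1 2 of 7 in KO and 1 of 7 in WT. For Txnrd1 17 of 20 were higher in KO, from −0.68 to 1.21, and 14 of 20 in WT. For Hmox1 7 of 8 were higher in either genotype, and for Osgin1 5 of 6 in KO and 6 of 6 in WT. The brightest probe set had the smallest KO change of its gene in Gsr (0.44) and Gclm (0.56), the lowest in Nqo1 (−0.53) and the largest in Srxn1 (0.66).

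**Figure D4:**
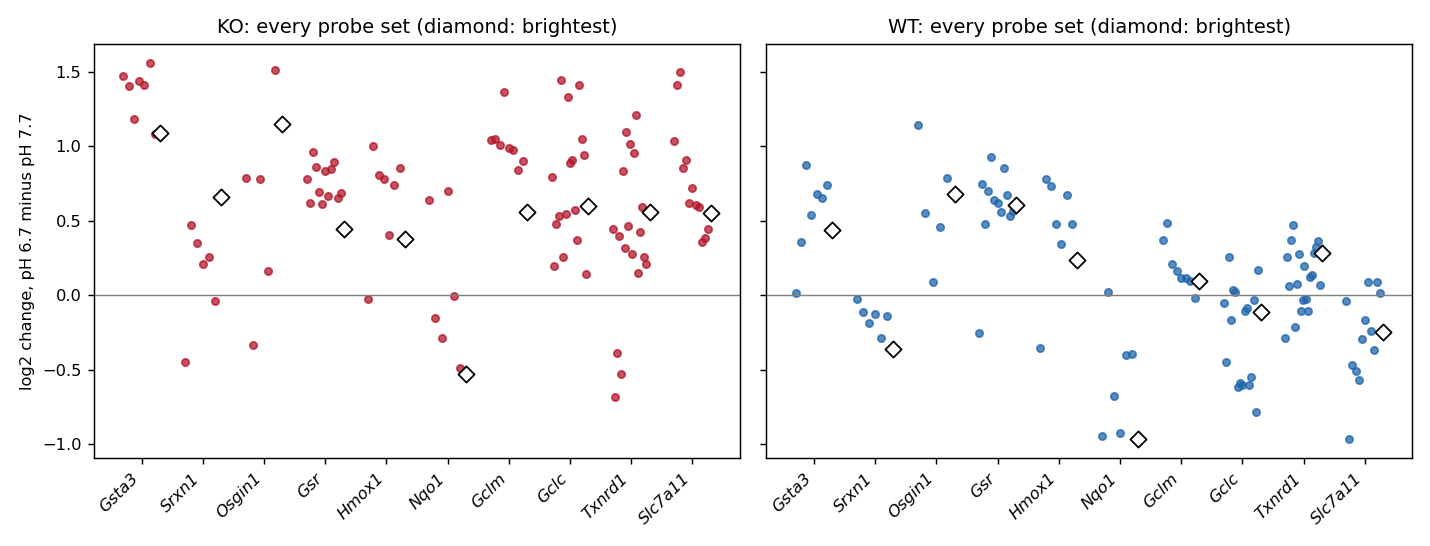
Log2 change at pH 6.7 against pH 7.7 (vertical axis) of every probe set of the 10 genes, KO on the left and WT on the right, ordered within a gene by level, with a diamond for the brightest. In KO 96 of 108 points lie above 0 and in WT 63 of 108, and the diamonds of Gsr and Gclm lie at the low end of their gene in KO.

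Among 14 genes that regulate NRF2, the transcript of NRF2 itself, Nfe2l2, fell in KO at pH 6.7. Nfe2l2 in KO cells read 7.96, 8.14, 8.07 and 8.06 at pH 6.7, against 8.55, 8.52, 8.46 and 8.32 at pH 7.7, without overlap. Nfe2l2 in WT cells read 8.06, 8.001, 8.06 and 7.96 at pH 6.7, against 8.20, 8.38, 8.55 and 8.20 at pH 7.7, also without overlap. The log2 change was −0.40 ± 0.10 in KO (limma adjusted p = 0.0186) and −0.31 ± 0.10 in WT (limma adjusted p = 0.0712), and averaged over both genotypes it was −0.36 ± 0.07 (limma adjusted p = 0.00207). In KO the call was lost without KO pH 6.7 replicate 1 or KO pH 7.7 replicate 1, and with the brightest (−0.15) or the median probe set. The averaged call was lost with both too (−0.18 and −0.33, adjusted p = 0.176 and 0.0733). Sqstm1, which encodes p62, a protein that binds KEAP1 and is itself an NRF2 target, was higher in KO at pH 6.7 (0.42 ± 0.10, limma adjusted p = 0.0198). Its KO call was lost without KO pH 6.7 replicate 2 or 4 or KO pH 7.7 replicate 1 or 4, and the brightest probe set gave 0.19. In WT the means of Sqstm1 were 8.11 at pH 6.7 and 7.87 at pH 7.7, without passing. Averaged over both genotypes Sqstm1 changed by 0.33 ± 0.07 (limma adjusted p = 0.00577). With the brightest probe set the averaged change was 0.28 and did not pass (adjusted p = 0.122). Keap1 (−0.01 in KO and 0.00 in WT) and Bach1, a repressor that competes for the same elements (0.08 in KO and 0.19 in WT), did not pass. In KO 1 of the 14 was called higher and 1 lower, and in WT 0 of 14 were called at all, with medians of 0.04 and −0.02. Of all genes tested 4.86% were called higher and 2.67% lower in KO, so these counts are near the background.

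Of 26 further NRF2 targets in detoxification, 23 were tested, and of these 4 were higher in KO at pH 6.7, 1 in WT and 0 lower in either. Over all genes tested 4.86% were higher in KO and 3.17% in WT, and the WT count is near that share. In KO these were Akr1b8, an aldo-keto reductase (0.82 ± 0.15, limma adjusted p = 0.00325), the transferase Gstm2 (0.80 ± 0.20, adjusted p = 0.0247), the glutathione conjugate exporter Abcc1 (0.61 ± 0.16, adjusted p = 0.0279) and the epoxide hydrolase Ephx1 (0.44 ± 0.12, adjusted p = 0.0288). In WT it was the exporter Abcc3 (0.97 ± 0.16, limma adjusted p = 0.00164). Akr1b8 in KO cells read 6.10, 5.72, 6.18 and 6.37 at pH 6.7, against 5.07, 5.37, 5.37 and 5.26 at pH 7.7, without overlap. The median of the list was 0.13 in KO and 0.04 in WT. The calls of Gstm2, Abcc1 and Ephx1 were lost in 5, 5 and 6 of 16 leave-one-out fits.

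Of 14 tested targets in the thioredoxin system, iron handling and NADPH supply, 2 were higher in KO and 1 in WT, with 0 lower and list medians of 0.18 and 0.15. With 4.86% of all genes tested called higher in KO and 3.17% in WT, these are counts of single genes. Cat, catalase, which breaks down hydrogen peroxide, changed by 0.60 ± 0.12 in KO (limma adjusted p = 0.00537). Idh1, an enzyme that makes NADPH, changed by 0.48 ± 0.11 in KO (limma adjusted p = 0.0144) and 0.51 ± 0.11 in WT (limma adjusted p = 0.0108). Among 25 other antioxidant genes, 2 were higher in KO: the glutathione synthetase gene Gss (0.62 ± 0.16, limma adjusted p = 0.0276) and the mitochondrial peroxiredoxin Prdx3 (0.40 ± 0.12, limma adjusted p = 0.0419). The medians of these 25 were 0.07 in KO and 0.05 in WT, beside −0.01 and 0.01 over all genes tested, and the KO count is near the 4.86% of all genes. The calls of Gss and Prdx3 were lost in 5 and 8 of 16 leave-one-out fits, and the median over probe sets gave 0.31 for Gss. That of Prdx3 was also lost with no filter, with the brighter probe sets and with the replicate block. In WT, where 3.17% of all genes were called higher and 1.54% lower, 3 were higher and 1 lower: Sesn2 (0.75 ± 0.10, limma adjusted p = 0.000397), Txnip, an inhibitor of thioredoxin (0.60 ± 0.11, adjusted p = 0.00434), Sesn3 (0.57 ± 0.12, adjusted p = 0.00917) and Prdx4 (−0.50 ± 0.13, adjusted p = 0.0339). The call of Prdx4 was lost in 5 of these fits, and with its brightest probe set the WT value of Sesn3 was −0.13. In WT at pH 7.7, Sesn2 read 2.62 to 2.80 and Sesn3 2.51 to 2.87, under the medians of these arrays (3.03 to 3.09).

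Slc7a11 is also a target of ATF4, the transcription factor of the integrated stress response. Of 18 tested genes of that response and of cystine use, 4 were higher in each genotype and 0 lower, with medians of 0.18 in KO and 0.20 in WT, where 4.86% and 3.17% of all genes tested were higher. Ddit3, which encodes CHOP, read 7.05, 7.20, 7.04 and 7.06 at pH 6.7, against 6.14, 6.31, 6.03 and 6.18 at pH 7.7 in KO cells. The groups were far apart, and the change was 0.93 ± 0.14 (limma adjusted p = 0.00111). In WT Ddit3 changed by 0.79 ± 0.14 (limma adjusted p = 0.00295). Nupr1, a stress-induced nuclear protein, changed by 0.89 ± 0.17 in KO and 1.16 ± 0.17 in WT, and the transcription factor Atf5 by 0.49 ± 0.14 and 0.74 ± 0.14. The fourth was the pseudokinase Trib3 in KO (0.68 ± 0.20, limma adjusted p = 0.0432) and Sesn2 in WT, which stands in both lists. Both had low levels at pH 7.7: Trib3 in KO read 2.61, 2.63, 3.21 and 3.11, where the array medians were 3.07 to 3.11, and Sesn2 in WT lay under them. In KO the calls of Atf5 and Trib3 were lost in 6 and 7 of 16 leave-one-out fits. Taking the brightest probe set, Gstm2, Ddit3 and Atf5 in KO and Nupr1 in WT kept their calls, and the other calls named from the 5 lists within a genotype were lost. The median over probe sets lost those of Abcc1, Akr1b8, Atf5, Ephx1, Gss, Idh1, Nfe2l2, Prdx3 and Sqstm1 in KO and of Prdx4 in WT. None of the genes in these 5 lists passed in the difference of the pH changes or between the genotypes at either pH. Averaged over both genotypes, 7.82% of all genes tested were called higher and 3.77% lower. Higher were 5 of 23 detoxification genes and 4 of 14 in thioredoxin, iron and NADPH. So were 6 of 25 other antioxidant genes and 6 of 18 ATF4 genes. Calls in these lists numbered 5, 2 to 4, 3 to 7 and 4 to 8 without 1 array. Of the 14 regulators 2 were higher and 1 lower. The lists were chosen with earlier results known, and the averaged comparison uses the same arrays.

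**Figure D5:**
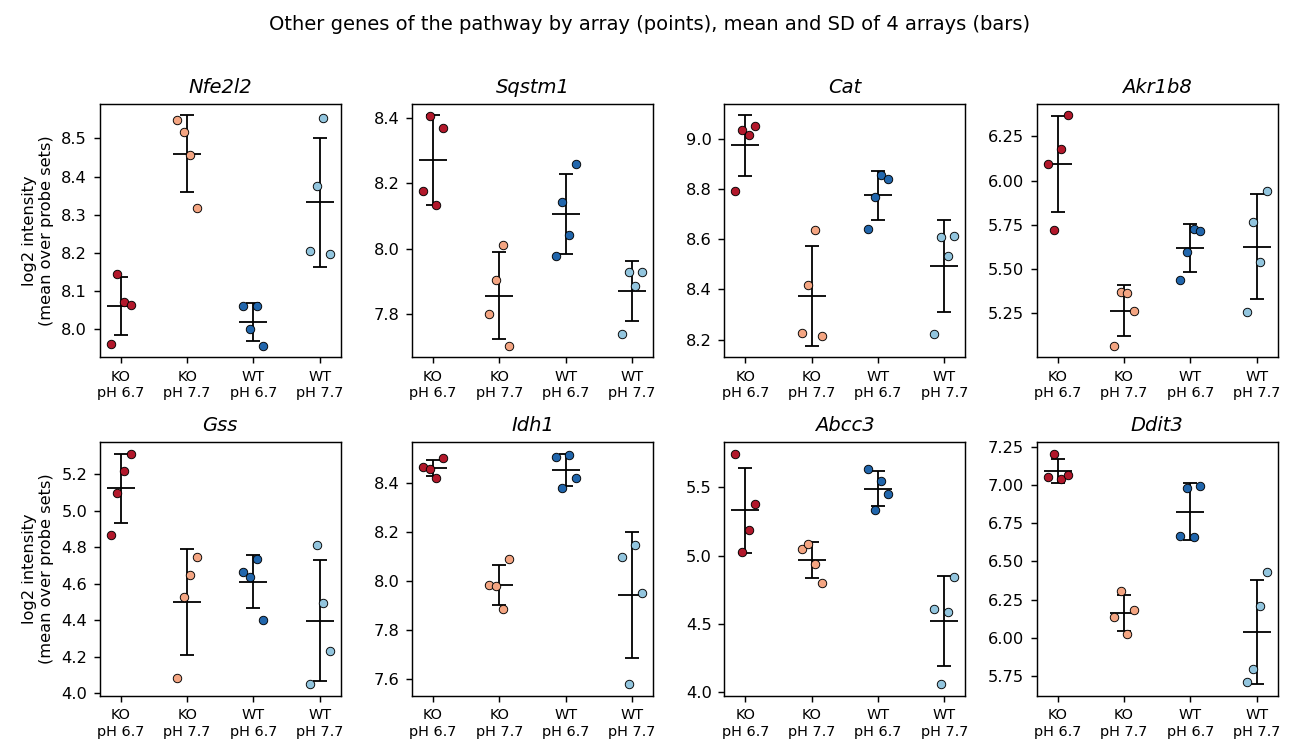
Log2 intensity (vertical axis, mean over a gene's probe sets, own scale for each gene) of 8 other genes of the pathway in the 4 groups, with a point for each array and bars for the mean and SD of 4 arrays. Nfe2l2 is lower at pH 6.7 than at pH 7.7 in both genotypes (means of 8.06 and 8.46 in KO, 8.02 and 8.33 in WT), while Ddit3 and Idh1 are higher at pH 6.7 in both.

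The mean of the 10 genes, each centred on its mean over all arrays, was 0.33 in KO at pH 6.7, −0.31 in KO at pH 7.7, 0.05 in WT at pH 6.7 and −0.06 in WT at pH 7.7. By array it was 0.06 to 0.50 in KO at pH 6.7 and −0.56 to −0.03 in KO at pH 7.7, without overlap, and −0.19 to 0.20 in WT at pH 6.7 and −0.33 to 0.15 in WT at pH 7.7. Replicate 1 was the lowest array of each group. Of 15760 other tested genes, Cat lay closest to this pattern, with a root mean square difference of 0.097 in log2 over the 16 arrays, where the median gene had 0.351. Ttc7 (0.127), Abcc1 (0.127), Ikbkg, a subunit of the IkB kinase complex (0.131), and Gde1 (0.139) were next.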

How the data were processed

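Resident peritoneal macrophages were profiled on 16 Affymetrix arrays, and the labels give 4 groups of genotype and pH. The deposited intensity values are on a linear scale and were normalised and summarised to 1 value per probe set by the authors using RMA and R version 2.15.2 (credited to the submitters' processing notes). Every column was matched to a labelled array, and log2 was taken here. The platform annotation gives 1 gene symbol to 213361 of 241576 probe sets, several to 5107 and none to 23108. Only those with 1 symbol were used, and a gene's value is their mean.

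Genes were tested if their brightest probe set lay above the array median on at least 4 arrays, which left 15770 of 20848. The model, run in limma 3.58.1 under R 4.3.3, had a mean per group over all arrays, moderated variances, 2-sided tests and Benjamini-Hochberg adjustment within each comparison. Errors of changes are standard errors. The steps were tested on simulated data. Alternatives were the brightest, brighter or median probe set, filters, normalization, variance settings, array weights, only the groups compared, a replicate block and each array left out. For the median, a gene's level on an array was the median over its probe sets on that array, which is not the median of their changes.

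The 10 genes and the 5 pathway lists were chosen with earlier results of these data known. All 10 genes are named in every comparison. In a list, up to 4 genes past the threshold with the smallest p are named, and the 5 genes most like the 10 are those with the smallest root mean square difference. Markers of 10 kinds of cells were summed on the linear scale. Leaving out each array for these markers was chosen after seeing the data. Those of small peritoneal macrophages reached 17.0 to 19.4 in KO at pH 6.7, 19.0 to 25.3 in KO at pH 7.7, 15.4 to 21.0 in WT at pH 6.7 and 15.2 to 19.0 in WT at pH 7.7. Those of large ones reached 461 to 536, 430.2 to 491, 384 to 531 and 385 to 470.2 in the same order of groups. Eosinophil markers reached 10.9 to 11.4, 11.4 to 12.9, 11.7 to 13.3 and 11.3 to 13.3, and neutrophil markers 154 to 169, 144 to 174, 108 to 169 and 123 to 176. The targeted gene and the genome build of the probe sets were not used here.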

Additional observations from a re-analysis of the deposited data

Results flagged for a closer look

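A single array stood apart from the other 3 of its group, by a gap above Dixon's 95% limit for 4 samples, in 5 of 40 sets of arrays examined, where chance gives about 1 in 20. The 40 sets come from 10 genes on the same 16 arrays and are not independent, so no excess over chance is read from this count. In KO at pH 6.7, Gclc read 5.19 in replicate 1, below the other 3. In KO at pH 7.7, Txnrd1 read 5.91 in replicate 1, below the others, and Srxn1 read 7.87 in replicate 3, above them. In WT at pH 6.7, replicate 1 was low for both Gclc (4.44) and Srxn1 (7.23). The WT pH 6.7 replicate 1 array also had the highest summed mast cell markers, 199 on the linear scale, and an array weight of 0.653 in limma, where the lowest of the 16 weights was 0.406 for WT pH 7.7 replicate 2. Whether this bears on Gclc and Srxn1 was not tested.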

How the results depend on the processing

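With the brightest probe set per gene, 3 of the 10 genes passed in KO (Gsta3, Osgin1 and Srxn1), 1 in WT (Gsr), 3 averaged over both genotypes and 1 in the difference of the pH changes (Srxn1), against 6, 3, 5 and 0 with the mean over probe sets. With the median over probe sets 1 passed in WT. Leaving out 1 array gave 5 to 7 in KO, 2 to 3 in WT, 5 to 7 averaged and 0 in the other comparisons. In the averaged comparison Txnrd1 joined without KO pH 6.7 replicate 1, and Gclc and Txnrd1 without WT pH 6.7 replicate 1 (0.35 and 0.33). The replicate block gave 8 in KO (with Slc7a11 and Txnrd1 added), 3 in WT and 6 averaged. Over all genes tested it called 1010 in KO, 689 in WT and 1759 averaged, against 1188, 743 and 1827 in the main fit. The labels do not say whether arrays with the same replicate number belong together. Over all genes tested, deviations from the group means of arrays with the same number correlated from −0.25 to 0.22. Of 16 arrays, 6 correlated best with an array of their own number among those of other groups. Such correlations cannot decide whether the arrays are paired.

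Signs turned only for values that did not pass, apart from Sesn3 in WT. With the brightest probe set the values were −0.16 for the pH difference of Gsr, −0.018 and −0.083 for KO minus WT at pH 6.7 of Gclc and Gsr, 0.079 and −0.025 for KO minus WT at pH 7.7 of Gsr and Osgin1, and −0.13 for Sesn3 in WT. With the median over probe sets they were 0.094 for Nqo1 in KO, −0.038 and −0.051 for the pH differences of Gsr and Osgin1, −0.061 for Gsr at pH 6.7 and 0.069 for Hmox1 at pH 7.7. With another quantile normalization Srxn1 averaged −0.0092. Leaving out 1 array gave −0.22 to 0.27 for Nqo1 in KO, −0.024 to 0.072 for Srxn1 averaged, −0.025 to 0.18 for the pH difference of Osgin1 and −0.11 to 0.0089 for Txnrd1 at pH 7.7. The cause was not tested. Of 1600 values of the 10 genes, 1537 kept their sign and side of the threshold, 23 lost the call, 15 gained it and 25 turned sign. Of 1086 values of pathway genes called within a genotype or averaged over both, 939 kept both, 146 lost the call and 1 turned sign. These include Nfe2l1, Blvrb and Prdx6, which were called only in the averaged comparison. The calls of Nfe2l1 and Blvrb were lost in 10 and 7 of 16 leave-one-out fits.

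Counts over all genes tested also moved. In KO 1188 passed, against 595 with the brightest probe set, 442 with the median, 1788 with array weights and 553 to 1449 without 1 array. In WT 743 passed, against 189, 337, 314 with only the groups compared and 475 to 722 without 1 array. Averaged, 1827 passed, against 560 with the brightest probe set and 976 with the median. In the difference of the pH changes 11 passed, against 95 with the brightest probe set, 31 with the brighter ones, 2 with the median, 4 with the stricter filter, 1 with the replicate block and 1 to 24 without 1 array. Between KO and WT at pH 6.7, 4 passed, against 72, 30, 0, 1 and 0 under the same settings, 13 with array weights, 0 with only the groups compared and 0 to 7 without 1 array. At pH 7.7, 0 passed, and 0 to 3 without 1 array. The 4 arrays per group and the unmeasured background limit the precision of every value.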
